A study of Sus scrofa with 6 samples.

Results

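TCONS_00077979 is a long non-coding RNA (lncRNA) of the pig, Sus scrofa, and it had the highest RPKM of all 10813 listed lncRNAs in each of the 6 ovary samples measured. It was picked for that level, so its level and its rank among lncRNAs are given as a description, without a test. It is 1 of 32420 listed features, of which 21607 are protein-coding genes. RPKM is the number of reads on a feature per kilobase of its length, scaled to all mapped reads of the sample, so it can be set side by side between features of different length. The ovaries were labelled 49 days post coitus. They came from the Meishan (3 samples), which is bred in China and known for large litters, and from the Large White (3 samples), which is a commercial breed from Europe, and no treatment was named in the labels. All 6 libraries were made from total RNA after depletion of ribosomal RNA, with a strand-specific protocol. The labels do not say whether the samples of a breed came from separate animals or litters, so each p-value below measures the spread between these samples only. The sequence, position and exons of TCONS_00077979 were not analysed here.

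LncRNAs are transcripts that are spliced and processed much like messenger RNAs but are not translated into a known protein. Most are kept at low levels and in few tissues, and some act on neighbouring genes or hold proteins together, while many have no known role. The ovary contains germ cells, the granulosa and theca cells that surround them in follicles, steroid-producing cells, stroma, vessels and immune cells. Steroid-producing cells import or make cholesterol and cut its side chain inside mitochondria, a step carried out by CYP11A1.

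The tissue label was compared with marker genes before the lncRNA was described. The labels do not state whether the ovary was that of a fetus or of its dam. Markers of germ cells were low. Of 7 germ cell markers that could be matched to a symbol, LIN28A, TFAP2C and NANOS3 were under 1 RPKM in every sample, DDX4 was between 0 and 1.58 RPKM, PRDM1 was between 0.653 and 3.09 RPKM, and the summed RPKM of the list was between 5.11 and 19.1, most of it from KIT in the Large White samples. All 6 matched markers of mesonephros and kidney epithelium were also under 1 RPKM in every sample, as were 6 of 10 matched markers of meiotic entry. Of the other meiotic markers, SPO11 was at 3.20 to 5.97 RPKM and MEIOB at 3.88 to 6.34 RPKM in the 6 samples. CYP11A1 lay between 506 and 1882 RPKM. Low markers of germ cells and mesonephros go against the name fetal ovary, while SPO11 and MEIOB were measured in every sample. As the labels leave it unsaid, the name is not used here, and no other cell type name is given in its place.

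Meishan replicate 3 stood apart from the other samples. A list of follicle granulosa and theca genes, written after values had been seen, summed to 1528 RPKM there and to 112 to 203 RPKM in the other 5 samples. Within it INHA, the alpha subunit of inhibin, was at 491 RPKM against 2.05 to 4.93 RPKM, and INSL3, a peptide hormone of theca cells, was at 235 RPKM against 1.04 to 15.6 RPKM. The 11 matched genes of replication and mitosis summed to 102 RPKM in Meishan replicate 3 and to 7.42 to 9.77 RPKM in the others. In bulk tissue, fewer cells of a type and less RNA per cell cannot be told apart. Correlations with TCONS_00077979 are therefore also given without this sample, in ranges where several features are described together.

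The level of TCONS_00077979 was highest in Large White replicate 2 and lowest in Meishan replicate 3. Its RPKM was 2491, 2369 and 797 in Meishan replicates 1 to 3, and 4038, 4659 and 2937 in Large White replicates 1 to 3. The mean over the 6 samples was 2882 ± 1361 RPKM (SD, n = 6), the median was 2714 RPKM, and the highest value was 5.84 times the lowest. In order, Large White replicates 2, 1 and 3 came first and Meishan replicates 1, 2 and 3 followed. Meishan replicates 1 and 2 lay close together, Large White replicate 3 lay only a little above them, and Meishan replicate 3 lay far below the rest. The groups did not overlap.

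**Figure D1:**
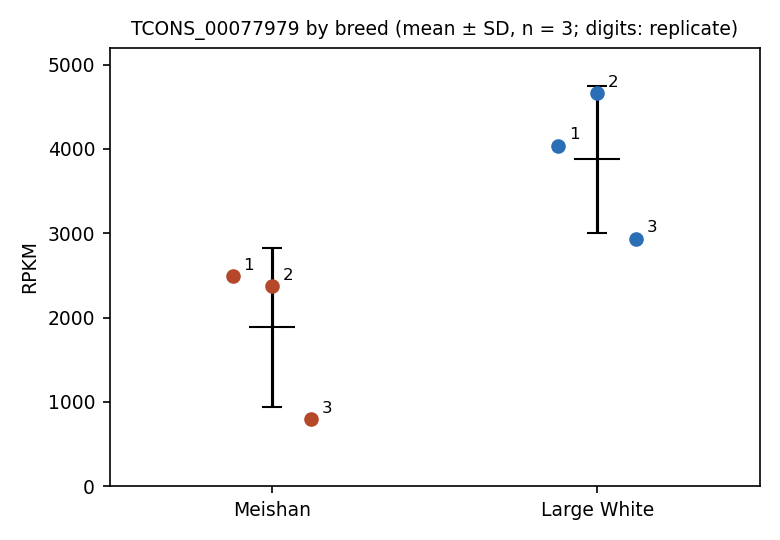
RPKM of TCONS_00077979 (vertical axis, starting at 0) in the 3 Meishan and 3 Large White samples. Points are samples labelled by replicate number, and bars show mean and SD (1885 ± 945 in Meishan, 3878 ± 872 in Large White); the lowest point is Meishan replicate 3 at 797 RPKM.

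The abundance rested on many reads. Recovered from the steps of the RPKM values, 171427, 165795 and 58552 reads fell on TCONS_00077979 in the Meishan samples and 267388, 328308 and 206183 in the Large White samples. The same steps gave the lncRNA a length of 1882 bases. Depth varied much less than the lncRNA did, from 35185781 to 39033204 mapped reads per sample. The share of mapped reads that fell on listed features was lowest in Meishan replicate 3, at 36.6%, and highest in Large White replicate 2, at 46.3%. These are also the samples where the lncRNA was lowest and highest. Of the reads on listed features it took 0.410% and 1.89% there. TCONS_00077979 alone took from 0.150% of the mapped reads in Meishan replicate 3 (95% Wilson interval 0.149% to 0.151%) to 0.877% in Large White replicate 2 (0.874% to 0.880%). These intervals cover counting error only, and they are far narrower than the differences between samples.

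TCONS_00077979 dominated the lncRNA class in every sample. It made up 30.0%, 31.4% and 13.2% of the summed RPKM of all listed lncRNAs in Meishan replicates 1 to 3, and 44.3%, 47.7% and 36.8% in Large White replicates 1 to 3. In Meishan the share averaged 24.9% ± 10.1 (SD, n = 3), and Large White samples averaged 42.9% ± 5.56 (SD, n = 3). The other lncRNAs together summed to 5804, 5171 and 5232 RPKM in the Meishan samples and to 5069, 5115 and 5042 RPKM in the Large White samples. That remainder therefore varied little while the share of TCONS_00077979 varied more than 3-fold. By reads, without division by length, the lncRNA held between 20.8% and 62.9% of all reads on lncRNAs and again ranked 1 among them in all 6 samples.

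The next lncRNA differed between samples and was always far lower. TCONS_00265313 came second in Meishan replicates 1 and 2 at 494 and 356 RPKM. TCONS_00822253 came second in Meishan replicate 3 at 220 RPKM, and TCONS_00785462 did so in the Large White samples at 226, 286 and 162 RPKM. TCONS_00077979 exceeded the second lncRNA 5.05-fold, 6.66-fold and 3.62-fold in the Meishan samples and 17.8-fold, 16.3-fold and 18.1-fold in the Large White samples. Its lead was thus smallest in Meishan replicate 3, where its own level was lowest.

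The other 9 of the 10 lncRNAs with the highest mean RPKM had means of 59.3 to 223 RPKM, which sum to 883 RPKM. None of them held a fixed place in the order. TCONS_00778279 moved least, between ranks 4 and 6 among lncRNAs. TCONS_00785462 moved between ranks 2 and 74, and TCONS_00823102 was at rank 3 in one sample but listed at 0 RPKM in Large White replicate 2. Their profiles varied in likeness to that of TCONS_00077979. Pearson's r of log2(RPKM + 1) with it ranged from -0.88 for TCONS_00822253, which peaked in Meishan replicate 3, to 0.999 for TCONS_00766513. Leaving out Meishan replicate 3 brought the r of TCONS_00822253 to -0.32, that of TCONS_00785462 from 0.951 to 0.811 and that of TCONS_00265313 from 0.54 to -0.57.

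**Figure D2:**
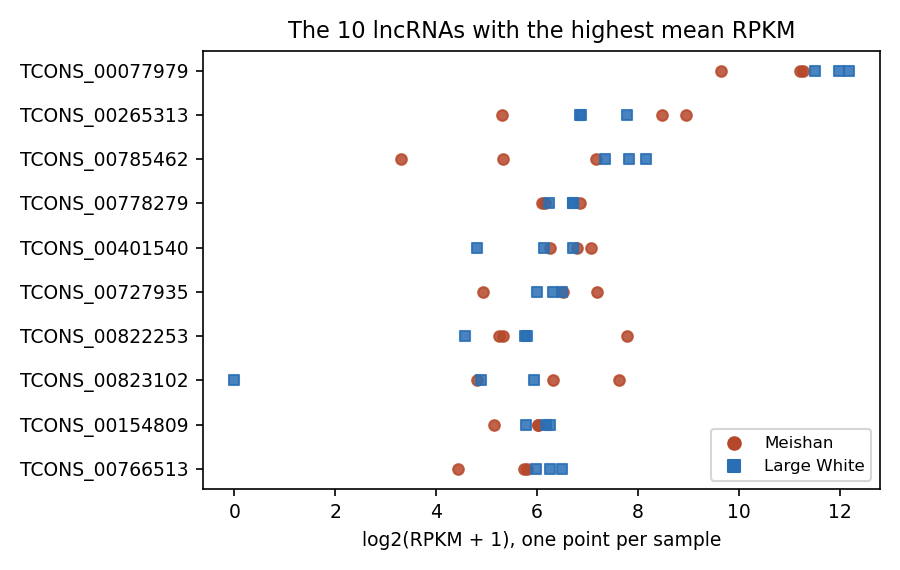
Levels of the 10 lncRNAs with the highest mean RPKM, 1 per row, on a log2(RPKM + 1) axis, with a circle for each Meishan sample and a square for each Large White sample. All 6 points of TCONS_00077979 lie to the right of every point of the other 9 lncRNAs, and 1 square of TCONS_00823102 lies at 0.

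Among all 32420 features TCONS_00077979 ranked 2 in Meishan replicate 1 and in all 3 Large White samples, 3 in Meishan replicate 2 and 12 in Meishan replicate 3. By reads it ranked between 2 and 8. A single feature had a higher mean RPKM, the protein-coding gene ENSSSCG00000005216, for which no symbol was found. It was at 9578, 9669 and 3538 RPKM in the Meishan samples and at 17095, 20361 and 13820 RPKM in the Large White samples. The order of its values was nearly that of the lncRNA, with a minimum in the same Meishan sample and a maximum in the same Large White sample.

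The next features below by mean RPKM behaved in opposite ways. COX1 (ENSSSCG00000018075), the mitochondrially encoded catalytic subunit of cytochrome c oxidase, was at 2460, 4634 and 2597 RPKM in the Meishan samples and at 1995, 2170 and 1884 RPKM in the Large White samples, and its r with TCONS_00077979 was -0.31, and -0.61 without Meishan replicate 3. It lay above the lncRNA in Meishan replicates 2 and 3. ENSSSCG00000026109, which also lacked a symbol, was at 2087, 2131 and 749 RPKM in the Meishan samples and at 3002, 3217 and 2481 RPKM in the Large White samples, with an r of 0.993, and 0.991 without Meishan replicate 3. Of the 11 features above the lncRNA in Meishan replicate 3, 4 were mitochondrially encoded (COX1, COX2, COX3 and ATP6) and another was VIM, the intermediate filament vimentin.

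The ratio of TCONS_00077979 to ENSSSCG00000005216 was close to constant. It was 0.260, 0.245 and 0.225 in Meishan replicates 1 to 3 and 0.236, 0.229 and 0.213 in Large White replicates 1 to 3, so its highest value was 1.22 times its lowest, while both features varied more than 5-fold. The log2 ratio had an SD of 0.101 over the 6 samples, the smallest of 10913 features with at least 1 RPKM in every sample, whose median was 0.896. This measure was added after values had been seen. The next steadiest partners were BCKDHB (ENSSSCG00000004465), a subunit of the mitochondrial complex that breaks down branched-chain keto acids, with an SD of 0.104, ENSSSCG00000020738 with 0.118, INSIG1 (ENSSSCG00000016420), an endoplasmic reticulum protein that holds back the activation of cholesterol synthesis genes, with 0.132, and ENSSSCG00000029589 with 0.140. The study annotated another lncRNA, TCONS_00077996, as intronic and antisense to ENSSSCG00000005216. It was at 34.8, 42.0 and 17.0 RPKM in the Meishan samples and at 70.0, 78.0 and 68.6 RPKM in the Large White samples, and its r with TCONS_00077979 was 0.956, and 0.857 without Meishan replicate 3. It was looked up after values had been seen. The positions of TCONS_00077979 and its partners were not analysed here, so whether any of them overlap or share reads, which could tie their levels, was not tested.

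TCONS_00077979 was lower in all 3 Meishan samples than in any Large White sample, but the difference did not pass the test. Meishan samples averaged 1885 ± 945 RPKM (SD, n = 3) and Large White samples 3878 ± 872 RPKM (SD, n = 3). The ratio of these means was 2.06, and leaving out Meishan replicate 3 brought it to 1.60. Fitted with limma on log2(RPKM + 1), Meishan was lower than Large White by a log2 difference of -1.18 (standard error 0.77, 95% interval -2.97 to 0.60), with a Benjamini-Hochberg adjusted p of 0.490 over 14902 tested features. The exact two-sided permutation test of log2(RPKM + 1) gave p = 0.1, the smallest that 3 against 3 samples allow. Leaving out Meishan replicate 3 gave a limma difference of -0.65 (95% interval -1.62 to 0.32, adjusted p = 0.416). Without the trend in the variance prior the limma difference over all 6 samples was -1.18 (standard error 0.44), with an unadjusted p of 0.0297 and an adjusted p of 0.265. The width of the interval thus depended on that prior as well as on the spread of the lncRNA.

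For background, 0.758% of the tested features were called between the breeds, with a fold of at least 2 and an adjusted p under 0.05, 0.544% were called lower in Meishan, and the share among lncRNAs was 0.925%. An unadjusted p under 0.05 was reached by 15.9%. Complete separation of the breeds with lower values in Meishan, as seen for TCONS_00077979, was found for 13.6% of tested features. Its log2 difference was large among them, since 1.32% had a difference at least as far below 0, but so was its spread. The SD within breeds was 0.70 on the log2 scale, against a median of 0.27 over the tested features, and 5.29% of features had a larger one.

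The features that followed TCONS_00077979 across the 6 samples were mostly protein-coding, as were 13388 of the 14901 other tested features. Pearson's r of log2(RPKM + 1) was at least 0.95 for 433 of the 14901 other tested features, 422 protein-coding genes and 11 lncRNAs, and at most -0.95 for 188, of which 7 were lncRNAs. High r was reached by 3.15% of tested protein-coding genes and 0.727% of tested lncRNAs. Low r was reached by 1.35% and 0.463%. The classes also differed in level, since 10522 of the 13388 genes but 391 of the 1513 lncRNAs had at least 1 RPKM in every sample. The part of level in these shares was not tested. The median r was 0.13 over protein-coding genes and -0.15 over lncRNAs. Both the medians and the split into high and low r depended on the scaling. With every sample brought to the same RPKM sum the medians were -0.35 and -0.34, and 179 features had high r against 493 with low r. High against low r was 257 against 269 with quantile normalization and 307 against 285 with upper quartile scaling. These are descriptions over 6 points that share their libraries and scaling, and no p-value is attached to them.

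**Figure D3:**
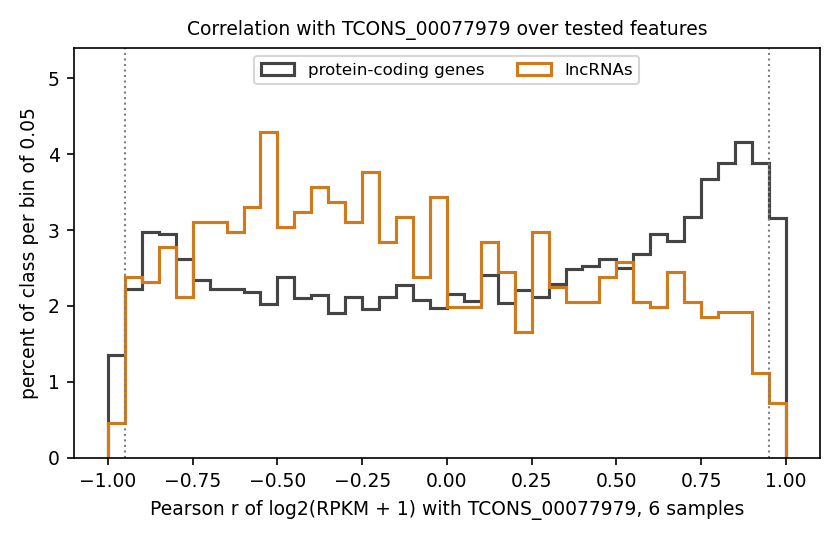
Distribution of Pearson's r with TCONS_00077979 over 6 samples (horizontal axis) for 13388 protein-coding genes and 1513 lncRNAs, as percent of each class per bin of 0.05. Dotted lines mark -0.95 and 0.95; protein-coding genes pile up towards high r, while the lncRNA curve is higher at moderately negative r.

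Meishan replicate 3 carried much of this pattern. All 433 features with high r had their lowest value in that sample and all 188 with low r had their highest value there. Among all tested features 30.1% and 24.3% did so. The level of the lncRNA there lay 1.76 log2 units from its median, farther than in any other sample. An r past 0.95 leaves little room for another extreme, so these counts follow from the selection by r. Without Meishan replicate 3, 106 of the 433 kept an r of at least 0.95 and all 433 stayed above 0, with a median of 0.903. Of the 188, 25 kept an r of at most -0.95 and all stayed below 0, with a median of -0.88. All of these features were chosen by r with that sample included, so the kept signs are no independent evidence. The sample was also the one with the high follicle and proliferation lists given above, and their part in the result was not tested.

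With the level of TCONS_00077979 as covariate in limma, 996 of 14901 features passed at an adjusted p under 0.05, a share of 6.68%. Of these, 671 had a positive slope (4.5%) and 325 a negative slope (2.18%), and 49 were lncRNAs, 24 of them positive. The split by direction depended on the scaling. It was 381 positive against 397 negative with quantile normalization, 452 against 441 with upper quartile scaling, and 299 against 870 with every sample brought to the same RPKM sum. The last scaling shifted the median of all features between the breeds from -0.03 to 0.14 on the log2 scale, so directions are relative to such a shift. The calls also depended on single libraries. No feature passed without Meishan replicate 3 (limma, 2751 at an unadjusted p under 0.05), none passed without Large White replicate 2 (2696 at an unadjusted p under 0.05), and 244 and 423 passed without Large White replicates 1 and 3.

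The 10 protein-coding genes with a symbol and the highest r are described first. UQCRC1 (ENSSSCG00000011356), a core subunit of respiratory complex III, had the highest r, 0.998. Its RPKM was 53.5, 54.6 and 28.6 in the Meishan samples and 72.9, 79.5 and 62.8 in the Large White samples. SDHC (ENSSSCG00000030318), a membrane anchor of respiratory complex II, was at 38.2, 33.6 and 16.5 RPKM in Meishan and 54.5, 56.3 and 42.3 RPKM in Large White. Both were lowest in Meishan replicate 3, like the lncRNA, but over a narrower range.

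BCKDHB tracked the lncRNA in size as well as in order. It was at 46.4, 41.5 and 14.5 RPKM in the Meishan samples and at 86.3, 87.2 and 58.9 RPKM in the Large White samples, and its slope on the log2 scale was 1.03 (standard error 0.086, limma adjusted p = 0.00975). IDH1 (ENSSSCG00000023264), the cytosolic isocitrate dehydrogenase that makes NADPH, was at 121, 133 and 55.1 RPKM in Meishan and 199, 221 and 155 RPKM in Large White, with a slope of 0.78. ACSL4 (ENSSSCG00000012583), which activates long-chain fatty acids such as arachidonic acid, was at 117, 103 and 41.4 RPKM in Meishan and 154, 186 and 136 RPKM in Large White, with a slope of 0.83. Slopes near 1 mean that a doubling of the lncRNA went with a doubling of the gene, and BCKDHB was the closest to that among these 10 genes.

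The remaining genes of this group were ME2 (ENSSSCG00000004522), the mitochondrial malic enzyme, ASAH1 (ENSSSCG00000006995), the lysosomal acid ceramidase, PRKAB1 (ENSSSCG00000009840), a regulatory subunit of the energy sensor AMPK, CACNB4 (ENSSSCG00000029073), a subunit of voltage-gated calcium channels, and CD247 (ENSSSCG00000006309), the zeta chain of the T cell receptor. ME2 was at 10.7 RPKM in Meishan replicate 3 and 26.7 RPKM in Large White replicate 2, and CD247 was at 4.50 and 17.3 RPKM in the same samples. Over the 10 genes r was 0.995 to 0.998, Spearman's rho was 0.943 to 1, and the slopes were 0.28 to 1.03. Without Meishan replicate 3 r was 0.972 to 0.992, without both samples farthest from the median level of the lncRNA, Meishan replicate 3 and Large White replicate 2, it was 0.943 to 0.997, and as deviations from the breed means it was 0.989 to 0.997. In limma 8 of the 10 passed with the lncRNA as covariate, and CACNB4 (adjusted p = 0.0552) and PRKAB1 (adjusted p = 0.0690) did not. As chosen by r, these genes are no independent evidence of a relation.

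ENSSSCG00000005216, despite its r of 0.994 (0.979 without Meishan replicate 3) and a slope of 0.99, did not pass in limma (adjusted p = 0.208). The standard error of its slope was 0.44, against 0.086 for BCKDHB. Its measured scatter was not larger, as the SD of the log2 ratio to the lncRNA was 0.101, against 0.104 for BCKDHB. The limma fit moves each variance towards a value set by mean level, so this standard error also reflects other features of high level.

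**Figure D4:**
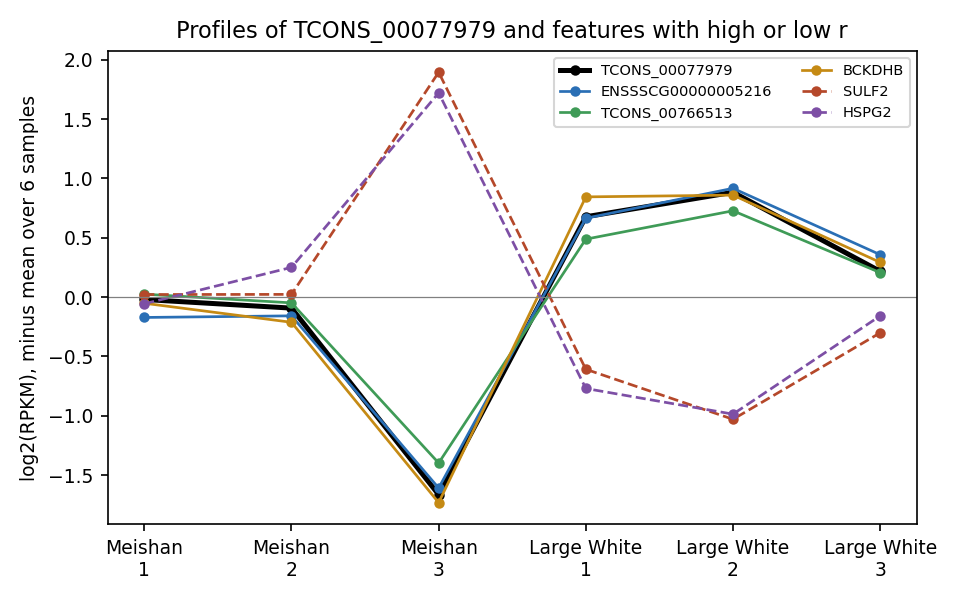
log2(RPKM) minus its mean over the 6 samples (vertical axis) for TCONS_00077979, 3 features with high r (solid lines) and 2 genes with low r (dashed lines), in each sample; lines only guide the eye. ENSSSCG00000005216 and BCKDHB nearly coincide with the lncRNA, TCONS_00766513 has a smaller range, and SULF2 and HSPG2 are its mirror image, with the widest gap in Meishan replicate 3.

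The 5 protein-coding genes with the lowest r mirrored the lncRNA. SULF2 (ENSSSCG00000007456), an extracellular enzyme that removes sulfate from heparan sulfate, was at 21.2, 21.2 and 77.5 RPKM in the Meishan samples and at 13.7, 10.21 and 16.9 RPKM in the Large White samples, with an r of -0.996. HSPG2 (ENSSSCG00000003514), the basement membrane heparan sulfate proteoglycan perlecan, was at 44.8, 55.4 and 153 RPKM in Meishan and 27.3, 23.5 and 41.7 RPKM in Large White, also with an r of -0.996. Their slopes were -1.08 (limma adjusted p = 0.00904) and -1.04 (limma adjusted p = 0.00975), so they fell about as steeply as the lncRNA rose.

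JUP (ENSSSCG00000017428), the junction protein plakoglobin, followed with an r of -0.995 and a slope of -0.56 (limma adjusted p = 0.0134). FNTB (ENSSSCG00000002281), a subunit of protein farnesyltransferase, had an r of -0.993, and ZNF827 (ENSSSCG00000009037), a zinc finger protein, one of -0.990, and neither passed in limma (adjusted p = 0.0740 and 0.0616). Spearman's rho was -1 for all 5 genes, so their order across the samples was exactly the reverse of that of TCONS_00077979. Without Meishan replicate 3 r lay between -0.987 and -0.946, and under quantile, upper quartile and same-sum scaling between -0.998 and -0.927. No gene of this group or of the 10 above was called between the breeds, beside 0.758% of all tested features. The limma adjusted p was 0.246 to 0.349 in this group and 0.216 to 0.383 among the 10.

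Among 391 lncRNAs with at least 1 RPKM in every sample, TCONS_00766513 was the closest to TCONS_00077979. It was at 55.1, 52.4 and 20.6 RPKM in the Meishan samples and at 76.0, 89.6 and 62.5 RPKM in the Large White samples, with an r of 0.999 and the same order of samples. It kept an r of 0.995 without Meishan replicate 3 and of 0.997 without both farthest samples, and its slope was 0.80 (standard error 0.081, limma adjusted p = 0.0119). TCONS_00077979 was 38.8 to 53.2 times as abundant as TCONS_00766513 by RPKM.

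The next lncRNAs followed less closely. TCONS_00321672, TCONS_00491555, TCONS_00195680 and TCONS_00190114 had mean levels of 4.93 to 13.9 RPKM and an r of 0.976, 0.976, 0.969 and 0.961. Without Meishan replicate 3 r fell to 0.857 for TCONS_00491555 and to 0.761 for TCONS_00190114. At the other end TCONS_00075862 was at 6.98, 10.9 and 20.2 RPKM in Meishan and 3.51, 3.30 and 5.36 RPKM in Large White, with an r of -0.959 and -0.938 without Meishan replicate 3. TCONS_00286064 had an r of -0.965 that became -0.794 without that sample, and TCONS_00306897 went from -0.948 to -0.709.

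Gene lists were described by their r with TCONS_00077979, beside a median r of 0.10 over all tested features, of which 54.3% had a positive r. That median was also 0.10 without Meishan replicate 3. It became 0.07 with quantile normalization, -0.09 with upper quartile scaling and -0.34 with the same RPKM sum. The lists were chosen with results of these data known, and no list was tested as a whole. Genes of cholesterol supply and synthesis, a list written after values had been seen, had a median r of 0.90 over 21 tested genes. It was 0.77 without Meishan replicate 3. In limma 11 of the 21 passed, all with a positive slope, beside 4.5% of all features. The number was 10 with upper quartile scaling, 10 with the same RPKM sum and 6 with quantile normalization. The genes that passed were mostly enzymes of the synthesis pathway. FDFT1, the first enzyme committed to sterols, was at 54.6, 55.0 and 25.9 RPKM in Meishan and 85.2, 92.2 and 76.0 RPKM in Large White, and its r was 0.988, and 0.949 without Meishan replicate 3.

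SCARB1, the receptor for high-density lipoprotein, did not pass in limma, with an r of 0.333 (adjusted p = 0.626). SCARB1 was at 1119, 908 and 252 RPKM in Meishan and 356, 505 and 489 RPKM in Large White, so it was highest in Meishan replicates 1 and 2. Its r was -0.793 once Meishan replicate 3 was left out. Of the 21 genes, 19 were lowest in Meishan replicate 3.

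Nuclear-encoded subunits of respiratory complexes II and III had a median r of 0.90 over 10 genes, and 0.89 without Meishan replicate 3. All 10 had a positive r, and 6 passed in limma with a positive slope, beside 54.3% and 4.5% of all features. The list was written after values had been seen and holds UQCRC1, the gene with the highest r. These shares are therefore no independent evidence of a relation. The number that passed fell to 3 with upper quartile scaling and to 2 with quantile normalization or the same RPKM sum. Mitochondrially encoded subunits went another way, with a median r of -0.39 over 13 genes, and -0.45 without Meishan replicate 3, and their summed RPKM was highest in Meishan replicate 2. CYP11A1 was at 1299, 1416 and 506 RPKM in Meishan and 1882, 1785 and 1655 RPKM in Large White, with an r of 0.975 (0.884 without Meishan replicate 3) and a limma adjusted p of 0.0583. FDXR, which supplies the electrons for that step, had an r of 0.896, and TSPO, a protein of the outer mitochondrial membrane, one of 0.708. These were 0.894 and 0.965 without Meishan replicate 3. LHCGR, the receptor for luteinizing hormone, stayed between 28.5 and 37.8 RPKM in all samples, with an r of -0.813, and -0.116 without Meishan replicate 3. Of the 4 tested markers of steroidogenic cells only 1, CYP11A1, had a positive r over 6 samples. INSL3 and CYP17A1 had an r of -0.721 and -0.242, which became 0.632 and 0.902 without Meishan replicate 3.

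The 3 matched macrophage markers had a median r of 0.97, and 0.82 without Meishan replicate 3. C1QA, a chain of complement C1q, was at 57.2, 34.9 and 20.7 RPKM in Meishan and 82.8, 105 and 89.6 RPKM in Large White, and it passed in limma (adjusted p = 0.0218), as did CD68 (adjusted p = 0.0268). CSF1R had an adjusted p of 0.0730. The summed RPKM of the 3 markers was 29.5 in Meishan replicate 3 and 49.5 to 125 in the others, and their part in the level of TCONS_00077979 was not tested.

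Lists that were high in Meishan replicate 3 ran opposite to the lncRNA. Of 7 tested genes of replication and mitosis all 7 passed in limma with a negative slope, beside 2.18% of all features, and their median r was -0.90, but without that sample the median was -0.10. TOP2A, the topoisomerase of dividing cells, was at 34.6 RPKM there and at 1.37 to 1.83 RPKM elsewhere. The follicle granulosa and theca list had a median r of -0.87, and 4 of 7 genes passed with a negative slope. Its median was 0.43 without that sample. Both negative medians thus rested on 1 sample.

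SERPINE2, a secreted protease inhibitor, had the lowest r of that list, also without the sample. It was at 46.2, 70.9 and 581 RPKM in Meishan and 32.6, 29.8 and 38.7 RPKM in Large White, with an r of -0.973, and -0.885 without Meishan replicate 3. Extracellular matrix genes had a median r of -0.52 over 14 genes, from HSPG2 at -0.996 to LAMA4, a laminin chain of vessels, at 0.952. The median was -0.03 without Meishan replicate 3, so it rested on that sample too.

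Lists of widely expressed genes changed sign with 2 of the 3 scalings. Cytosolic ribosomal proteins had a median r of 0.22 over 27 genes, which became -0.31 with quantile normalization, -0.28 with the same RPKM sum and 0.86 without Meishan replicate 3. Widely expressed reference genes had a median r of 0.44 over 6 genes, which became -0.40 and -0.31 under these scalings and 0.51 without that sample. With upper quartile scaling both medians stayed positive, at 0.04 for ribosomal proteins and 0.21 for reference genes. Several other medians turned in sign when Meishan replicate 3 was left out. They went from 0.57 to -0.53 for 4 endothelial genes, from -0.48 to 0.63 for 5 stromal genes, from -0.48 to 0.76 for 4 genes of steroidogenic cells, and from -0.54 to 0.64 for 13 genes of nuclear RNA binding and splicing. The median of 5 genes of pregranulosa and supporting cells went from -0.81 to -0.24, and that of 5 imprinted genes from -0.31 to -0.81. Germ cell, meiotic and oocyte lists had 3 or 4 tested genes each, with medians of 0.19, -0.15 and -0.39 that became -0.12, 0.06 and 0.29, and the median of 2 erythroid genes went from 0.26 to 0.03. Of the Sertoli cell and mesonephros lists no gene reached the level needed to be tested. Apart from ribosomal proteins and reference genes, every list with at least 3 tested genes kept the sign of its median under all 3 scalings. The median of the follicle list turned in sign without Meishan replicate 3.

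**Figure D5:**
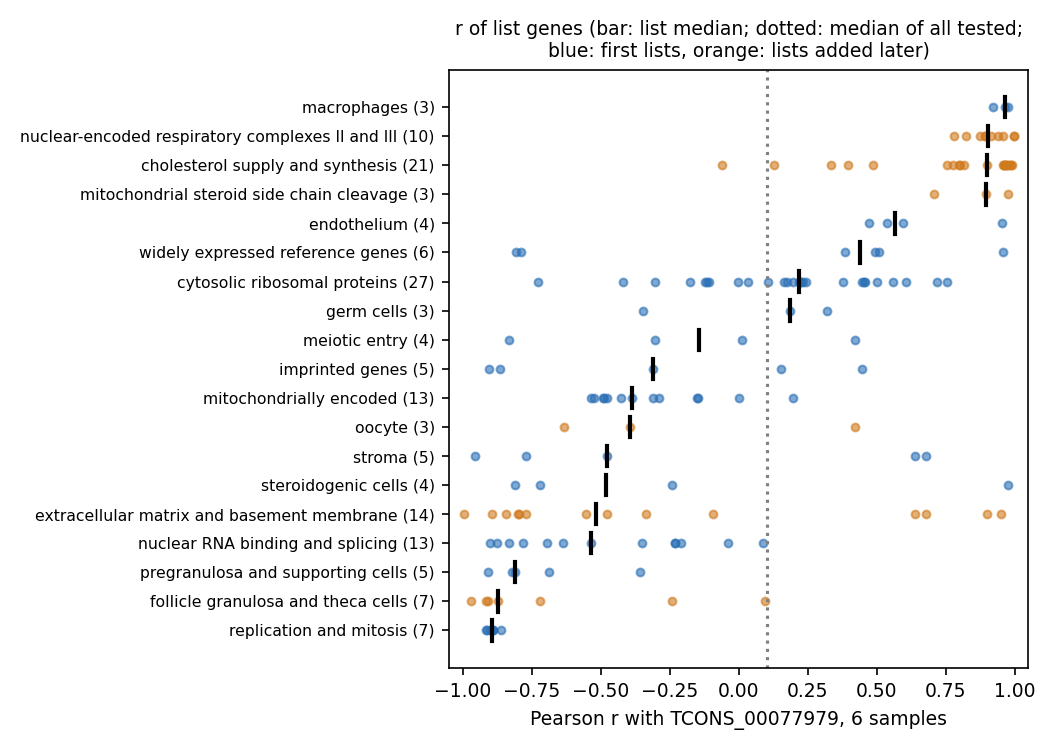
Pearson's r with TCONS_00077979 over 6 samples (horizontal axis) for each tested gene of lists with at least 3 tested genes (rows, number of genes in brackets). Black bars are list medians, the dotted line is the median of all tested features (0.10), and orange marks lists written after values had been seen; respiratory, cholesterol and macrophage genes lie at the right and replication and follicle genes at the left.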

How the data were processed

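RNA of 6 pig ovary samples (3 Meishan, 3 Large White) was analysed, grouped by the breed in the labels. The authors deposited 1 RPKM value per feature and sample. They mapped reads to the S. scrofa genome with TopHat (TopHat2 2.1.0 and HTSeq in the submitters' processing notes), counted them by strand with htseq-count, and used read pairs as the unit. Reads that overlap several features may be dropped in such counting, which was not tested for TCONS_00077979.

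Depth and reads were recovered from the steps of the RPKM values with the lncRNA lengths the study lists, within a tolerance of 1e-05 of a whole number. The recovered length equalled the listed length for 98.8% of 80 lncRNAs with at least 100 reads in every sample. Symbols were matched for 11654 of 21607 protein-coding genes from a table of gene names.

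Features with at least 0.5 RPKM in at least 3 samples were log2-transformed after adding 1 and tested with limma 3.58.1 (R 4.3.3), with a variance trend and Benjamini-Hochberg adjustment. The added 1 understates changes of low features. Calls between the breeds needed a fold of at least 2 and an adjusted p under 0.05, limits after the study's methods, whose count tool was not used because RPKM values are not counts. Followers were described by Pearson's r and tested with the level of TCONS_00077979 as covariate. Scripts were tested on simulated data. Other steps used Python 3.11.15 with pandas 2.3.3 and scipy 1.17.1.

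Features named are the lncRNA, the other 9 of the 10 highest lncRNAs, up to 2 protein-coding genes above and below it by mean RPKM (only 1 lies above), and, among features with at least 1 RPKM in all samples, the 10 genes with a symbol and 5 lncRNAs of highest r and the 5 genes and 3 lncRNAs of lowest r, with examples from gene lists. The steadiest ratios and TCONS_00077996 were added after values had been seen, as were examples inside lists beyond those of highest and lowest r. TCONS_00077979 and all lists were chosen with earlier results of these data known. The alternatives tried were adding 0.1 in place of 1, filtering at 0.1 RPKM or not at all, 3 scalings, no trend, limma-voom on recovered reads, a replicate block, breed as a second term, other measures of r, and each sample left out. Values of some members of the gene lists are not reported here.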

Additional observations from a re-analysis of the deposited data

How the results depend on the processing

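The breed difference of TCONS_00077979 kept its direction and was not called under all 15 alternatives run, with a log2 difference from -1.47 to -0.65 and an adjusted p from 0.265 to 0.855. The mean level of TCONS_00077979 was 2526 to 3299 RPKM over the alternatives run, lowest without Large White replicate 2 and highest without Meishan replicate 3. It ranked 1 among lncRNAs in every sample, by RPKM and by reads, so leaving out a sample could not change that rank.

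The number of features called between the breeds, 113, became 62 with a pseudocount of 0.1, 62 with limma-voom on recovered reads and 4 with no filter, and 2 to 240 with each sample left out, highest without Meishan replicate 3. The features following TCONS_00077979 in limma, 996, became 381 with no filter and 0 to 1253 with each sample left out. The features with r past 0.95 in either direction, 621, became 1371 with Spearman's rho of at least 0.94, 1151 as deviations from the breed means, and 688 to 1318 with each sample left out. The cause was not tested, beyond the fewer samples or the more features tested that these settings bring by construction.

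Samples of both breeds carry the numbers 1 to 3. Same-numbered samples' deviations from the breed means correlated at -0.04, 0.12 and 0.15, so the numbers were not taken to pair samples. With the replicate block, 27 features were called between the breeds, 0 followed the lncRNA in limma (2438 at an unadjusted p under 0.05), and the adjusted p of TCONS_00077979 was 0.513.

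At these read numbers counting error did not limit the level of TCONS_00077979. The spread of the lncRNA within breeds, 0.70 on the log2 scale, was larger than that of most tested features.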
